A study of Homo sapiens with 4 samples.

Results

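Wide CEBPB peaks are the 586 intervals of at least 800 bp in replicate 1 that overlapped an interval of at least 800 bp in replicate 2, among 61602 replicate 1 intervals on chromosomes 1 to 22 and X that overlapped any replicate 2 interval by 1 bp or more. They made up 0.951% of these shared intervals (95% exact binomial interval 0.876 to 1.03%), and the other 61016 shared intervals served as the comparison. Members were selected on width alone, as measured in both replicates. The peaks come from ChIP-seq of NCM460 cells, a line of human colon epithelium, in which the DNA held by an antibody to CEBPB was sequenced beside input DNA. The series has 2 CEBPB ChIP samples and 2 input samples, with no treatment or genetic change named in the labels, and the peak lists of both ChIP samples were used. The replicates are described as independent and come from 1 cell line, so the spread between them does not cover other colon cells. Positions are hg19, counted from 1.

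CEBPB, also called C/EBP beta or NF-IL6, is a basic leucine zipper transcription factor that binds DNA as a dimer, with itself or with other members of its family, at short palindromic sites. It is known for switching on inflammatory and acute-phase genes after cytokine signals and for driving cell differentiation. A transcription factor bound at a lone short site usually gives a narrow ChIP-seq peak, about as wide as the sheared DNA fragments, with a single point of highest coverage, the summit. Peak callers join neighbouring stretches of coverage into 1 interval and can list several summits inside it.

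Widths, summits, folds and backgrounds come from the same ChIP and input libraries as the width, so they are given as a description without a test. Replicate 1 held 980 intervals of at least 800 bp (1.3% of 75169) and replicate 2 held 1195 (1.22% of 97829), so most of the wide intervals of replicate 1 and fewer of those of replicate 2 were wide in both. Each of the 586 had its own partner in replicate 2. Of the remaining wide intervals of replicate 1, 390 overlapped a replicate 2 interval under 800 bp, with a median of 594 bp for the widest partner, and 4 had no partner. In replicate 2, 606 overlapped a narrower interval, with a median of 592 bp for the widest partner, and 3 had none. A wide interval of one list was often divided in the other: 144 of the 390 and 236 of the 606 overlapped at least 2 separate intervals. The intervals that were wide in 1 list had median folds of 19.6 in replicate 1 and 20.3 in replicate 2.

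Members were 940 bp wide at the median in replicate 1, with quartiles of 861 and 1051 bp and a maximum of 2287 bp. In replicate 2 they were 951 bp wide, with quartiles of 881 and 1081 bp and a maximum of 2416 bp. Other shared intervals had medians of 270 and 287 bp. Within the members, widths of the replicates followed each other with a Spearman rho of 0.61 over 586 intervals, which share their libraries and were cut at the same threshold. Their starts lay a median of 40 bp apart between replicates and their ends 34 bp, against 29 bp at both edges of other shared intervals. Replicate 2 was the wider at 57.7% of members, with a median width ratio of 1.02.

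**Figure D1:**
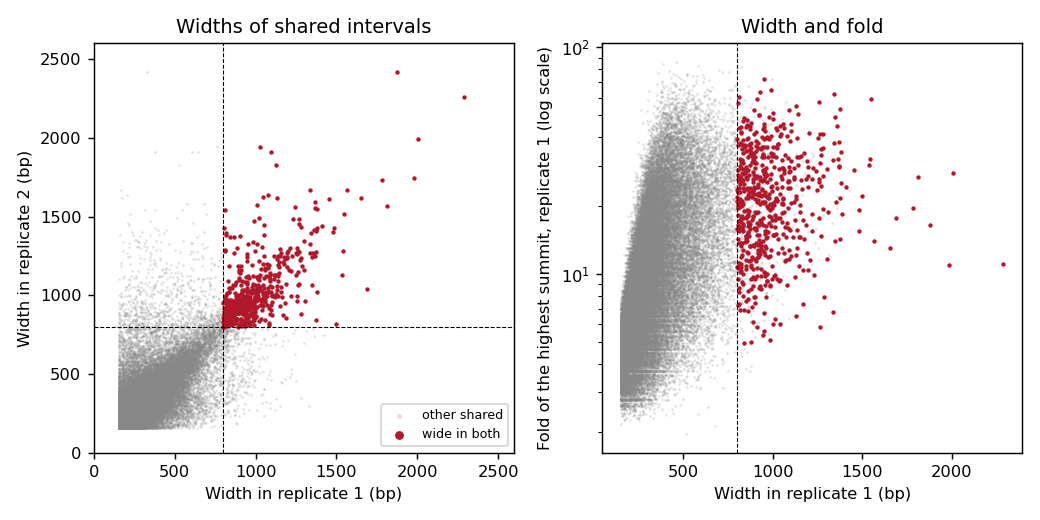
Left, width in base pairs in replicate 1 against replicate 2 for the 586 wide peaks (red) and the 61016 other shared intervals (grey), with dashed lines at 800 bp; right, width against the authors' fold at the highest summit in replicate 1, on a log axis. The red points fill the upper right corner by construction, and their folds reach from 4.96 to 72.5.

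At the threshold, 4 members had a smaller width of exactly 800 bp. They lay in bands 10q21.2 (804 and 800 bp in replicates 1 and 2), 11q21 (800 and 801 bp), 2q22.1 (800 and 953 bp) and 8q12.1 (800 and 860 bp). The nearest shared pairs outside had a smaller width of 798 bp and lay in 1p35.2 (798 and 972 bp), 12q24.31 (798 and 808 bp), 14q32.12 (820 and 798 bp) and 6p23 (801 and 798 bp). Mean folds ran from 14.4 to 28.8 for these 4 inside and from 14.8 to 31.1 for the 4 outside, so the ranges overlap for intervals a few bp apart in width.

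Most wide peaks were made of several summits. In replicate 1, 551 of 586 (94.0%, interval 91.8 to 95.8%) had 2 or more summits and 217 (37.0%) had 3 or more. In replicate 2, 561 (95.7%, interval 93.8 to 97.2%) had 2 or more and 252 (43.0%) had 3 or more. Other shared intervals had 2 or more summits in 6.66% and 8.64% of cases. The members held 1392 summits in replicate 1 and 1447 in replicate 2. Both replicates listed at least 2 summits at 540 members (92.2%), and the number of summits was the same at 379 (64.7%). These shares have exact binomial intervals, which cover counting error over intervals only.

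Over 806 distances in replicate 1, neighbouring summits inside a wide peak lay a median of 375 bp apart, with quartiles of 297 and 459 bp. Over 861 distances in replicate 2 the median was 372 bp, with quartiles of 296 and 462 bp. No distance exceeded 815 bp in replicate 1 or 869 bp in replicate 2. Wide peaks with 2 summits spanned a median of 439 bp between them in replicate 1 and 445 bp in replicate 2, whereas other shared intervals with 2 summits spanned 282 and 292 bp. Outside the outermost summits, width minus span had a median of 464 and 473 bp in wide peaks with 2 summits, and of 282 and 285 bp in the others. With 3 summits the span of wide peaks rose to 661 and 658 bp, while width minus span was 344 and 353 bp. Other shared intervals with 3 summits were nearer to them, with spans of 557 and 588 bp and width minus span of 260.5 and 283 bp. Since members were selected on width, longer parts of it follow from the rule and are given for their size alone.

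**Figure D2:**
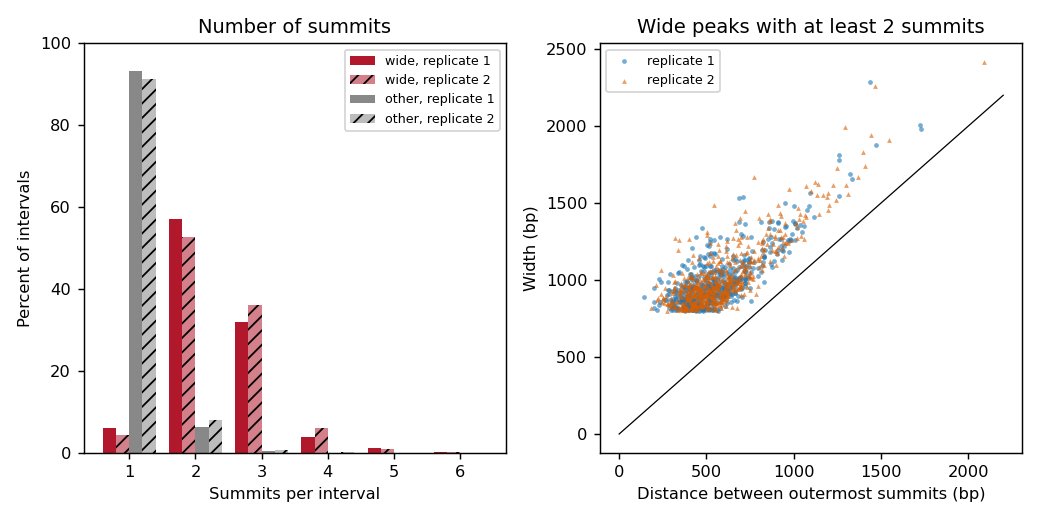
Left, percent of wide (red) and other shared (grey) intervals with 1 to 6 summits, with hatched bars for replicate 2; right, width against the distance between the outermost summits, in base pairs, for wide peaks with at least 2 summits, with a line where both are equal. Most wide peaks have 2 or 3 summits, and the points run parallel to and above the line, at a median of 418 bp in replicate 1 and 417 bp in replicate 2.

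Summit positions recurred between the replicates. The summit of highest fold in replicate 1 had a replicate 2 summit within 50 bp at 564 of 586 members (96.2%), and that of replicate 2 had a replicate 1 summit within 50 bp at 554 (94.5%). Of the lesser summits, 612 of 806 in replicate 1 (75.9%) and 622 of 861 in replicate 2 (72.2%) had such a counterpart. The tallest summits of the replicates, those with the most fragments, lay a median of 8 bp apart. At 505 members (86.2%) they lay within 50 bp, and at 62 (10.6%) they lay over 200 bp apart, at some of which the interval of replicate 2 reached past that of replicate 1. Among other shared intervals, few of which have a second summit, 1374 (2.25%) had tallest summits over 200 bp apart.

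The second highest summits were near the fold of an ordinary shared peak, and the further ones were lower. The second highest summit of a wide peak had a median fold of 9.52 in replicate 1 (quartiles 6.59 and 14.7, 551 intervals) and 9.96 in replicate 2 (quartiles 6.41 and 14.8, 561 intervals). The third and further summits had median folds of 5.40 in replicate 1 (255 summits) and 5.37 in replicate 2 (300 summits), with upper quartiles of 7.93 and 7.91. The highest summits of other shared intervals had medians of 8.17 and 8.96. Inside a member with several summits, the lowest fold was a median of 0.433 times the highest in replicate 1 and 0.384 times in replicate 2.

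Members with 1 or 2 summits were the taller ones at the median. In replicate 1 the 35 members with 1 summit had a median fold of 30.4 and 149 fragments, the 334 with 2 had 22.5 and 118, and the 187 with 3 had 16.9 and 88. In replicate 2 the 25 members with 1 summit had 31.5 and 231 fragments, the 309 with 2 had 23.2 and 149, and the 211 with 3 had 19.3 and 116. Members with 4 or more summits had a median fold of 17 and 94.5 fragments in replicate 1 (30 members). In replicate 2 they had 20.2 and 142 fragments (41 members). The fall with summit number thus did not go on past 3, and these medians were above those at 3 summits. Among other shared intervals, width rose with fold (rho 0.63 in both replicates) and with summit number (rho 0.39 and 0.45). A cut on width can thus tie height to summit number among members, so this order is given for its size alone.

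A set of 14 members (2.39%) had a single summit in both replicates. Their widths ran from 802 to 1139 bp in replicate 1 and from 801 to 1066 bp in replicate 2, and their medians were 212 and 232 fragments. The widest of them by mean width, chosen after its values were seen, lay in band 6p24.3 on chromosome 6 at 10033028 to 10034166. It was 1139 and 995 bp wide, with folds of 50.8 and 31.5 and 230 and 235 fragments at summits 14 bp apart. Its edges lay at -541 and 598 bp from the lone summit in replicate 1, and at -461 and 534 bp from that same point in replicate 2.

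By fold over input, the members were strong but not uniformly so. The highest summit had a median fold of 20.9 in replicate 1 (quartiles 14.0 and 29.6) and 21.6 in replicate 2 (quartiles 14.5 and 30.1). In fragments, the median tallest summit rested on 108 in replicate 1 and 134 in replicate 2, against 29 and 40 in other shared intervals. Of the members, 257 were in the strongest decile of all shared intervals by fold in replicate 1 and 266 in replicate 2, each decile holding about 6160 intervals. The lower 5 deciles together held 29 and 48 members. At 161 members (27.5%) both replicates stood above 50% of the highest fragment number in their list, 299 and 312, against 2.97% of other shared intervals. Among members, width and fold had a rho of 0.10 in replicate 1 and 0.11 in replicate 2, and among other shared intervals rho was 0.63 in both. The threshold narrows the range of widths among members, so the values cannot be compared between the sets, and they run across sites of the same libraries.

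The strongest wide peak lay in band 8q21.2 on chromosome 8 at 86847637 to 86848975. It was 1339 bp wide in replicate 1 and 1669 bp in replicate 2, had 4 summits in each, and reached folds of 62.2 and 56.5 (59.4 ± 4.05, SD, n = 2) with 211 and 237 fragments. A pair of strong members lay close together in band 15q23 on chromosome 15. The one at 70722271 to 70723082 had folds of 60.5 and 57.0 (58.7 ± 2.49) with 2 summits in each replicate. Its neighbour at 70744936 to 70745925 had 64.5 and 39.0 (51.8 ± 18.0) with 3 summits in each. Its fragments, 175 and 194, differed less than its folds, and its background was 1.53 expected fragments in replicate 1 and 3.00 in replicate 2.

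Next in strength was a site in band 21q22.12, the band that carries RUNX1, a transcription factor gene of blood and epithelia. It lay on chromosome 21 at 36207793 to 36209139, with folds of 49.1 and 62.1 (55.6 ± 9.21) and widths of 1347 and 1062 bp. The sites in 9q21.32 (chromosome 9, 84402599 to 84403855) and 8q13.1 (chromosome 8, 67041970 to 67042822) both had a mean fold of 53.1, with SDs of 6.05 and 7.45. Sites in 10q26.11 (chromosome 10, 120759975 to 120760901), 16p13.3 (chromosome 16, 3308778 to 3309584) and 4q21.21 (chromosome 4, 82128937 to 82129811) had mean folds of 52.4, 51.8 and 49.0. A pericentromeric site in 9p11.2 (chromosome 9, 46212367 to 46213318) had folds of 72.5 and 27.4 (49.9 ± 31.9). Its fragments were 161 and 204, and its background was 1.07 in replicate 1 and 5.00 in replicate 2. With means from 49.0 to 59.4 and SDs of up to 31.9, the order of these 10 sites is not resolved.

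The widest peaks were a different set: none of the 10 widest was among the 10 strongest. By mean width of the replicates, the widest lay in band 7q36.3 near the end of chromosome 7, at 158707735 to 158710021, and measured 2287 bp in replicate 1 and 2260 bp in replicate 2. It had 5 summits in each replicate. In replicate 1 they lay at -256, 0, 629, 902 and 1182 bp from the summit of highest fold, and in replicate 2 at -266, 15, 626, 895 and 1199 bp from the same point. Their folds were even, from 7.92 to 11 in replicate 1 and from 7.56 to 13.1 in replicate 2. The 5 summits thus recurred with offsets of at most 17 bp, and none stood far above the rest.

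A site in band Xp22.33, which includes the pseudoautosomal region shared with chromosome Y, was next (chromosome X, 2547967 to 2549842). It measured 1876 bp in replicate 1 and 2416 bp in replicate 2, with 5 summits in each, and reached folds of 16.5 and 19. From its summit of highest fold in replicate 1, summits at 764 bp in replicate 1 and -1013 bp in replicate 2 had no counterpart. The tallest summits of the replicates lay 386 bp apart. A wide peak in 15q23 (chromosome 15, 71586889 to 71588894) measured 2006 and 1995 bp with 5 and 4 summits. Its highest folds were 27.9 and 35.2, and a summit of fold 4.77 at its right end in replicate 1 had no counterpart in replicate 2.

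The member with the most summits lay in band 12q24.31, which carries the genes of the spliceosomal U4 small nuclear RNA (chromosome 12, 120728376 to 120730358). It had 6 summits in each replicate over 1983 and 1742 bp. Measured from the summit of highest fold in replicate 1, not all of them matched. Those at 639 and 873 bp in replicate 1 and at -556 and 555 bp in replicate 2 had no counterpart within 50 bp. The summits were low, with folds from 4.11 to 10.9 in replicate 1 and from 4.14 to 10.5 in replicate 2. The tallest summits of the replicates lay 855 bp apart, with 45 fragments in replicate 1 and 66 in replicate 2.

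On chromosome 11, a pair of the widest peaks lay in band 11q13.1, which carries the genes of the abundant nuclear long noncoding RNAs NEAT1 and MALAT1. The wider, at 65274181 to 65275991, measured 1811 and 1567 bp with 5 and 4 summits and folds of 26.7 and 18.1. In replicate 1 its folds were 26.7 and 23 at the right-hand pair of summits, which lay 470 bp apart, and from 2.89 to 5.76 at the 3 on the left. The other, at 65190014 to 65191667, measured 1654 and 1620 bp, with 4 summits in each replicate. Its left-hand summit led in both replicates with folds of 13 and 18.6. A further member in 11q12.3, at 62607516 to 62609297, measured 1782 and 1729 bp with folds of 19.5 and 18.5. The bands are given as landmarks, since no gene annotation of hg19 was used and no peak is assigned to a gene.

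The last of the 10 widest lay in 20q13.33 (chromosome 20, 61970554 to 61972120), 16p13.12 (chromosome 16, 14106904 to 14108451) and 4p15.1 (chromosome 4, 34182900 to 34184354). Mean widths were 1618, 1532 and 1532 bp, with SDs of 72.8, 21.9 and 109 bp (n = 2). At the site in 16p13.12 the same summit led in both replicates, further ahead in replicate 1 than in replicate 2. The folds in replicate 1 were 14.1, 15, 59.1 and 4.39 from left to right, and in replicate 2 they were 20.0, 5.89, 35.4 and 4.45. At the site in 20q13.33 the summits of highest fold were at different places, with 13.9 in replicate 1 and 24.0 in replicate 2 at 594 bp to its right.

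**Figure D3:**
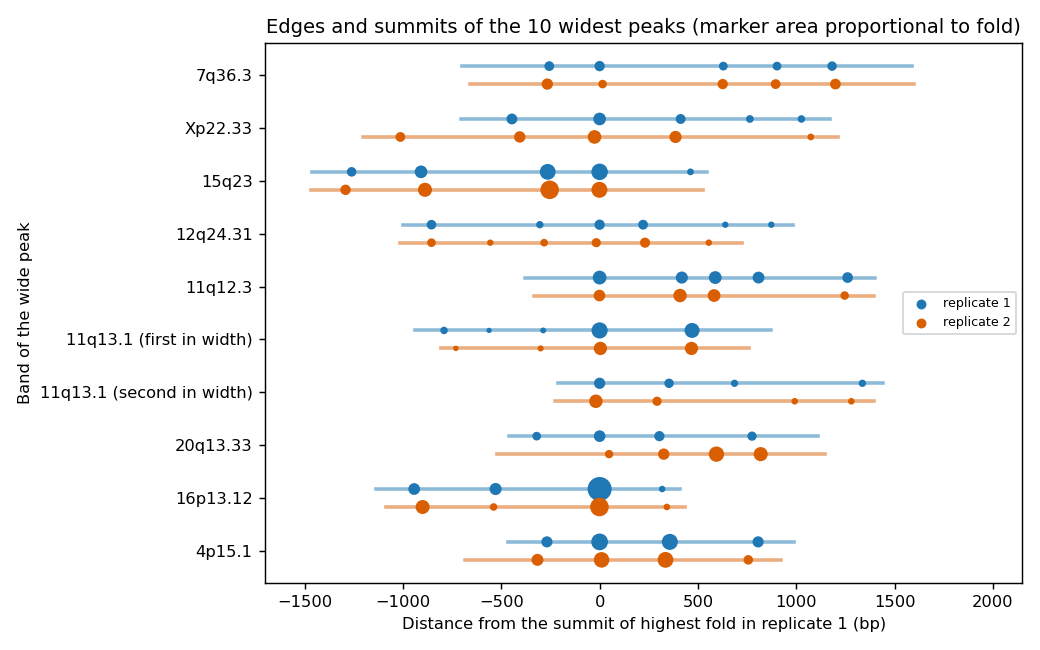
Edges (bars) and summits (circles, area proportional to fold) of the 10 widest peaks in replicate 1 (blue) and replicate 2 (orange), in base pairs from the summit of highest fold in replicate 1, labelled by band. The 5 summits in 7q36.3 line up between replicates, whereas the summits in 20q13.33 do not all match.

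A few members differed widely in width between replicates. The largest ratios of replicate 2 to replicate 1 width were 1.9 in 22q12.3 (809 and 1539 bp), 1.89 in 7p12.3 (1027 and 1940 bp) and 1.77 at the strong site in 16p13.3 (807 and 1428 bp). Each of these had another shared interval of replicate 1 close by, at gaps of 0.305, 0.146 and 0.211 kb. The smallest ratios were 0.547 in 17p11.2 (1500 and 820 bp, 3 summits and 1), 0.613 in 12q12 (1375 and 843 bp) and 0.616 in 3p21.31 (1689 and 1040 bp). Here the gaps were 3.81, 0.137 and 2.30 kb, so a close neighbour was not limited to the largest ratios. All 6 had more summits in the replicate in which they were wider.

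The IDR table of the authors, where IDR is the irreproducible discovery rate of a pair of ranked lists, used 537 of the 586 members (91.6%, interval 89.1 to 93.8%). At an IDR of at most 0.01 it used 452 (77.1%). For other shared intervals the shares were 41.3% and 24.8%. The IDR ranks come from the same contrast of ChIP and input as the widths, and members were cut on width in both replicates. These shares are therefore a description, not separate evidence of reproducibility. The 49 members outside the table had median folds of 7.89 and 7.72 in replicates 1 and 2, with ranges from 4.96 to 20.9 and from 3.77 to 25.9. The weakest member by mean fold, in 11q14.2 (chromosome 11, 85884999 to 85885982; chosen after its values were seen), was among them with folds of 5.09 and 3.77 over 984 and 836 bp.

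Input background was higher at wide peaks. The background of the peak caller, the expected number of scaled fragments from input, was 3.52 at the median member in replicate 1 and 3.9 in replicate 2, at the summit of highest fold. At other shared intervals it was 2.14 and 2.67. The 25198 other shared intervals in the IDR table, which were stronger with median folds of 15.2 and 15.9, had background medians of 2.14 and 2.65. On 23 of 23 chromosomes the median in replicate 1 was higher for members, and on 22 of 23 in replicate 2. In replicates 1 and 2, 1.37% and 1.54% of members sat at the lowest background that the caller assigns, against 11.2% of other shared intervals in both replicates. The part of the background in the widths was not tested. The member with the highest background lay in 18p11.32 near the end of chromosome 18 (108747 to 110010), with 40.1 and 53.5 expected fragments. Its folds were 5.82 and 4.29 on 257 and 291 fragments, which makes it tall in coverage and weak in enrichment.

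**Figure D4:**
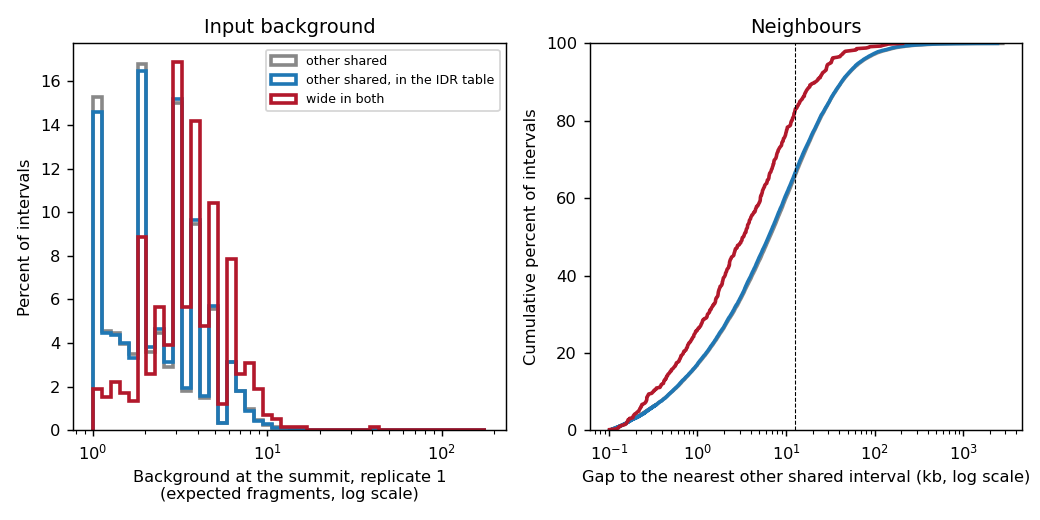
Left, distribution of input background at the summit of highest fold in replicate 1, in expected fragments on a log axis, for wide peaks (red), other shared intervals (grey) and those of them in the IDR table (blue, nearly over the grey); right, cumulative percent of intervals by the gap to the nearest other shared interval in kb on a log axis, with a dashed line at 12500 bp. The wide peaks are shifted to higher background and to shorter gaps, with 82.1% within 12500 bp.

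Wide peaks also had more close neighbours. Another shared interval lay within 12500 bp of 481 members (82.1%, interval 78.7 to 85.1%), against 65.5% of other shared intervals and 66.2% of those in the IDR table. Within 1 kb the shares were 25.9% (interval 22.4 to 29.7%), 16.9% and 17.1%. The median gap was 3.33 kb for members and 6.57 kb for the others. The shares at 5 kb were 58.7% and 43.9%, and at 50 kb 98.0% and 92.0%. Position was not part of the rule, but gaps were measured from edge to edge, so the greater width of members can shorten them. A neighbour can also overlap the same replicate 2 interval as the member, and such cases were not set apart. In Xp22.33 the gap was 0.165 kb and the replicate 2 interval was 2416 bp wide. The widest replicate 2 partner of the other shared intervals was also 2416 bp. The shares, above all that within 1 kb, are thus not counts of separate sites. Neighbouring sites are also not independent, and the difference has no test.

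Some members lay near another member. Within 12500 bp of each other there were 13 pairs holding 26 of the 586 members, and no larger group. Members made up 0.951% of shared intervals. No count of pairs expected at that share was made, so 26 is read neither as few nor as many. The tightest pair lay in 1q42.12 (chromosome 1, 225923048 to 225925254), within 2.21 kb, with mean folds of 28.4 and 6.82. A pair in 14q23.3 (chromosome 14, 65703361 to 65706224) had 13.4 and 8.99. A pair in 17q11.1 (chromosome 17, 25571877 to 25575228) had 40.8 and 15. The left-hand member of each of these 3 pairs was the stronger.

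Over chromosomes 1 to 22 and X the members had a density of 0.193 per Mb (95% Poisson interval 0.178 to 0.209). As a share of shared intervals they ranged from 0.371% on chromosome 19 (6 of 1619; interval 0.136 to 0.805%) and 0.548% on chromosome 13 to 1.36% on chromosome 20 and 1.46% on chromosome 15 (interval 0.983 to 2.1%). Chromosome 2 had 26 members, or 0.585% (interval 0.383 to 0.856%), and chromosomes 1 and 5 had the most, 45 each. On chromosome 19 shared intervals were dense, at 27.3 other intervals per Mb, and few were wide. On arm 5p, whose members had median backgrounds of 5.98 and 6.79, the share was 1.26% (14 members, interval 0.690 to 2.1%). The intervals are not adjusted for 23 chromosomes, and no test of these shares was made.

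**Figure D5:**
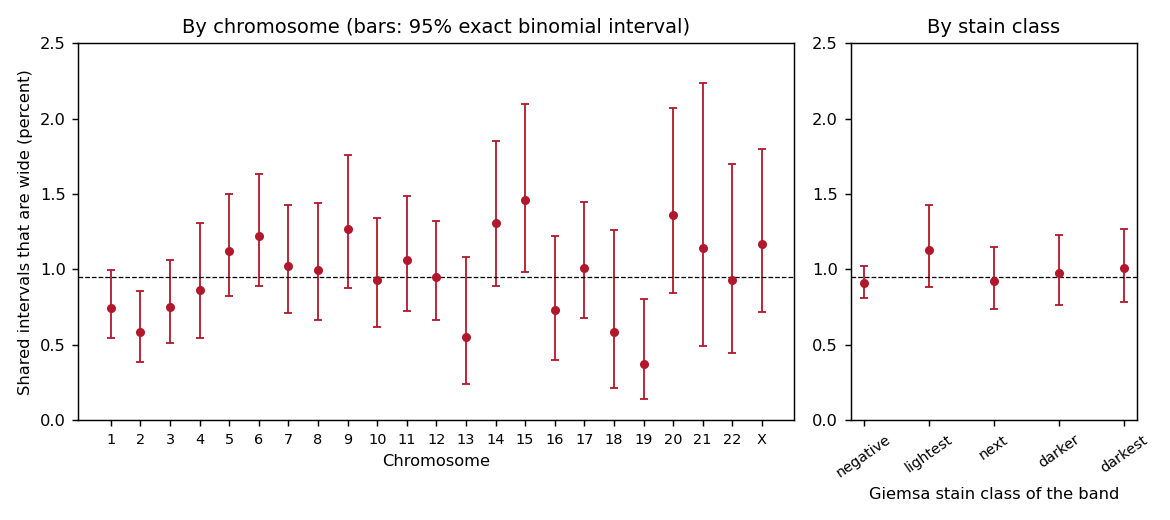
Percent of shared intervals that are wide in both replicates, by chromosome (left) and by Giemsa stain class of the band, from negative to darkest (right), with 95% exact binomial intervals and a dashed line at 0.951%. Chromosomes 2 and 19 lie below the line with their whole interval, chromosome 15 lies above it, and the intervals of the stain classes all reach it.

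By stain class the share hardly moved. Bands left pale by the Giemsa stain (negative), where genes are dense, held 296 members, 0.908% of their shared intervals (interval 0.808 to 1.02%), and the darkest bands held 68, or 1.01% (interval 0.783 to 1.27%). The lightest positive class had 1.13%, and the classes between had 0.925% and 0.977%. In density the members followed the other shared intervals: members were 1.68 times as dense in negative as in the darkest bands, and the others 1.87 times. Among bands of at least 2 Mb, 14q13.1 and 8q13.1 had the most members per Mb, 2.00 each from 4 members in 2.0 Mb (interval 0.545 to 5.12). They were followed by 1q42.12 with 1.67, 3q25.31 with 1.50, and 14q23.2, 9q22.31 and 12p13.2 with 1.48 each. With 3 or 4 members a band, these densities overlap widely.

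To ask whether the libraries differed in height at the members, the fragments at the tallest summits were compared with a two-sided exact binomial test against the median share at intervals of like height, over all 61602 shared intervals. Of the members 28 (4.78%, interval 3.20 to 6.83%) passed an adjusted p of 0.05, of which 15 were higher in replicate 2 and 13 in replicate 1. The background over all shared intervals was 3.90%, of which 1.60% was higher in replicate 2 and 2.30% in replicate 1. The members' share was thus near that of all shared intervals, although they rest on more fragments. Where the tallest summits lay within 50 bp of each other, 22 of 505 members (4.36%) passed, against a background of 3.45%. The p-values compare 2 libraries and cover counting error only.

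The smallest p among members was at 10q23.1 on chromosome 10 (87401906 to 87403029), with 83 and 215 fragments (exact binomial test, adjusted p = 1.9e-07). Its tallest summits lay 1392 bp apart, since the interval of replicate 2 was 1830 bp wide and reached past that of replicate 1. At 5q13.2 on chromosome 5 (71560870 to 71561781) the summits lay 4 bp apart, with 75 and 182 fragments (exact binomial test, adjusted p = 5.6e-05) and folds of 16.7 and 35.8. The widest peak, in 7q36.3, also differed, with 105 and 212 fragments (exact binomial test, adjusted p = 0.000701). At those summits its background was 9.00 and 12.0 expected fragments in replicates 1 and 2, and its folds were 9.83 and 13.1. Other shared intervals of the band had median backgrounds of 2.00 and 2.18. The first 2 were picked after their p-values were seen.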

How the data were processed

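The peak lists of 2 CEBPB ChIP samples, each called over input per the file headers, and the authors' deposited table of the IDR (27544 entries) were used; the inputs enter through the peak caller. Per the submitters' processing notes, peaks rest on the hg19 build, with MACS2 2.1.2, Bowtie2 2.3.4 and SAMtools 1.9 among the tools named. Settings, duplicate removal and the aligner's filters are not given in the sources used here. Per summit, the deposited lists give the authors' fold enrichment (a ratio to background), −log10 of p and of q, and a score, which was not used. The fold of an interval is that of its highest summit.

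Fragments, meaning extended reads, and background were solved from fold and −log10 p, with the caller's pseudocount of 1, a scale of 0.927 in replicate 1 and 0.800 in replicate 2. Whole numbers came out at 100% of summits within 0.005 on −log10 p, and the step was tested on simulated data. Total read numbers are unknown, so the depth behind a site is its fragments. Intervals were intersected with bedtools 2.31.1 at 1 bp or more; a shared interval without a wide partner took the replicate 2 interval of largest overlap, which can serve several. IDR intervals matched both lists in all entries. Bands came from circlize 0.4.16. Fragments were tested against a running median of 1001 intervals, with Benjamini-Hochberg adjustment. The work was done in Python 3.11.15, with pandas 2.3.3, SciPy 1.17.1, statsmodels 0.14.6 for the adjustment, NumPy 2.4.6 and, for plots, matplotlib 3.10.9.

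Named sites are the 10 widest, the 10 strongest, the 5 with the most summits, the 3 largest and 3 smallest width ratios, the sites at the threshold, the 3 tightest groups and the densest bands. Members and lists were chosen with earlier results of these data known. No hg19 sequence was used here, so the planned count of C/EBP motifs was not run and no sequence is shown.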

Additional observations from a re-analysis of the deposited data

Results flagged for a closer look

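Outside chromosomes 1 to 22 and X, which the comparisons above leave out, 4 intervals of at least 800 bp in replicate 1 overlapped an interval of at least 800 bp in replicate 2, among 597 shared intervals there. They are listed because those sequences are not otherwise described. On chromosomes 1 to 22 and X it was 586 of 61602, and no difference between these shares was tested. At the 4 intervals, replicates 1 and 2 had median folds of 10.7 and 8.50, over median backgrounds of 7.50 and 11 expected fragments. The 4 differed among themselves in replicate 1: 2 lay on unplaced sequences, with folds of 7.68 and 3.95 over backgrounds of 12.4 and 27.8, and the other 2 had a median fold of 17 over a background of 2.30.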

How the results depend on the processing

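The 586 wide peaks became 2165 at a width threshold of 600 bp and 145 at 1000 bp. They stayed at 586 with a −log10 q of at least 5 and were 583 with an overlap of 50% of both intervals. At 600 bp the mean of the replicates' median folds went from 21.2 to 20.3, the share with 2 or more summits from 94.9 to 77.7%, the median background from 3.71 to 3.40 and the share used by the IDR table from 91.6 to 88.7%. At 1000 bp the fold was 23.9, the share with several summits 100% and the share with a neighbour 85.5%. With the wide intervals of 1 list alone, leaving out each replicate in turn gave 980 to 1195 intervals, folds of 20.4 to 21.0, several summits in 93.6 to 93.9%, backgrounds of 3.21 to 3.59, IDR shares of 87.1 to 87.9%, stain ratios of 1.72 to 1.84 and neighbours in 85.1 to 89.3%. In these single lists a neighbour was any other interval of the list, shared or not, so those shares are not comparable with the main one. Among shared intervals, neighbours of the 586 were found for 58.7% at 5 kb and 98.0% at 50 kb. The 28 members that differed between libraries became 10 at an adjusted p of 0.01, 77 of 2165 at 600 bp and 7 of 145 at 1000 bp, which test other members, and 27 with a running median over fewer intervals. The motif alternative was left out for lack of a genome. No paired analysis was possible because the input samples have no values of their own in these files, so ChIP and input were not tested as groups. Fragment numbers of 20 to 304 at the tallest summits set the depth behind each member.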
